A study of Mus musculus with 8 samples.

Results

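The 33 genes described here are those that carry a cell from G1 into S phase and copy its DNA: the G1/S cyclins and their kinase, the E2F factors, the proteins that license replication origins, the helicase and polymerase machinery, and the enzymes that supply nucleotides and handle chromatin at the fork. They were listed by name, and each was matched to the array platform by its gene symbol, with older synonyms allowed. Each of the 33 had 1 probe, among 16390 named genes, and each probe had a value on all 8 arrays, so that all 33 were tested. For 6 of them the platform used an older symbol, as for Cdt1, which it lists as Ris2.

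Gene expression was measured in quiescent neural stem cells (qNSCs) of 1 mouse NSC line, which was derived from the ventral telencephalon of ICR embryos and expresses Nestin and Sox2. In all groups, quiescence had been induced by 3 days in quiescence medium, which holds BMP4 and bFGF and no EGF, and the medium was then changed. The control groups received fresh quiescence medium alone and the BafA groups the same medium with 20 nM bafilomycin A (BafA), an inhibitor of the V-ATPase that acidifies lysosomes, and RNA was collected after 4 h or 24 h. Each of the 4 groups (control 4 h, BafA 4 h, control 24 h and BafA 24 h) comprised 2 arrays. All arrays thus come from 1 line with no genetic change, without proliferating NSCs for comparison, and nothing states that the 2 arrays of a group were separate cultures, so that the p-values measure only the spread between arrays. In RNA from a whole culture, fewer cells that express a gene and less RNA per cell cannot be told apart.

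In G1, the origin recognition complex (ORC), Cdc6 and Cdt1 load the Mcm2 to Mcm7 helicase onto origins, a step called licensing, and geminin (Gmnn) binds Cdt1 and holds it inactive once S phase has begun. Cyclin E with Cdk2 relieves the block that the retinoblastoma protein family places on E2F factors, and activating E2Fs then raise transcription of most of the replication genes. Quiescent cells leave the cycle before this step, and in the adult brain most neural stem cells rest in that state, from which growth signals can recall them.

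Signals are given in the units of the array median, which was set to 25. An offset was added to every spot before scaling, so that the dimmest tested probe on an array read 12.8 to 13.8 and fold changes of dim probes are compressed. Between 21652 and 22077 of the 23473 gene probes had a value on an array, and the median gene spot was 1.57 to 1.72 times as bright as the mean blank spot. The number of arrays, 2 in each group, limits the precision of every value. Of the 33 genes, 8 were below the array median in every group in the deposited values, and Mcm10, which helps to activate the loaded helicase, was at the floor, with normalised signals of 13.2 to 14.1 on all arrays. Changes were tested with limma on the log2 scale over 20473 probes, with an adjusted p under 0.05 as the threshold, and log2 fold changes are given with their standard errors (SE). With 2 arrays a side, the smallest two-sided p of an exact permutation test is 0.33, and none was run on single genes.

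Markers of the neural stem cell state were present on all arrays. Vimentin (Vim) had signals from 7258 to 11964 and Fabp7 from 5380 to 10507, and Nestin (Nes) was lowest in control 24 h, at 55.5 and 54.3, and highest in BafA 24 h, at 218 and 227. Of the 10 neural stem cell markers tested, none was called at 4 h by limma (5 had an unadjusted p under 0.05). At 24 h, 4 were higher with BafA (Nes, Hes1, Id1 and Fabp7) and 3 were lower (Vim, Sox9 and Id3). Of all 20473 probes, 2027 had an unadjusted p under 0.05 at 4 h, and 14.6% were called higher and 12.8% lower at 24 h. Of 6 astrocyte markers, 4 fell at 24 h with BafA, among them Gfap, Aqp4 and Gja1, and 1 rose, and the summed signal of the 6 was 3933 to 5496 in control 24 h and 1094 to 1385 in BafA 24 h. Of 5 neuronal markers, 3 fell and 1 rose at 24 h, and their sum was 303 to 345 in control and 124 to 127 in BafA. Oligodendrocyte lineage markers summed to 1603 to 1880 in control and 2347 to 2403 in BafA at 24 h. Of the 5, 1 was higher (Olig2, 1.66 ± 0.15 on the log2 scale) and 1 lower (Cspg4, -0.34). Their median log2 fold change was -0.05, with 3 of the 5 below 0. Olig2 was also the 1 marker of these lists called at 4 h (0.77 ± 0.15, adjusted p = 0.00456). None of 5 microglial markers was called at either time, and their sums were between 106.7 and 120.2 on all arrays. The 6 tested endothelial, mural and fibroblast markers summed to 105.8 to 128.1, with Col1a1 lower at 24 h. The part of these shifts in the 24 h values of the replication genes was not tested.

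Among the licensing genes, Cdt1 stood apart. Its normalised signal was 51.6 and 47.5 on the control 4 h arrays and 231 and 312 on the BafA 4 h arrays. At 24 h it was 30.9 and 32.4 in control and 159.9 and 133.9 in BafA. At either time, both BafA arrays lay far above both control arrays. On the log2 scale BafA raised it by 2.44 ± 0.14 after 4 h (adjusted p = 4.96e-11) and by 2.21 ± 0.14 after 24 h (adjusted p = 1.5e-11). No difference between these 2 effects was detected (-0.23 ± 0.20, adjusted p = 0.602, 95% interval -0.65 to 0.19). In the deposited values, to which no offset was added, the group means differed 7.08-fold at 4 h and 7.22-fold at 24 h. By log2 fold change, Cdt1 ranked 3 of 20473 probes at 4 h and 60 at 24 h. It also fell between 4 h and 24 h, by 0.65 on the log2 scale in control (SE 0.14, adjusted p = 0.00107) and by 0.88 in BafA (SE 0.14, adjusted p = 2.74e-05), so that the gap between BafA and control was carried at a lower level at the later time. The fall in control had an adjusted p of 0.0576 over the 6 arrays that share a scan setting, from which replicate 1 of both control groups differed in the gain slopes of the scanner.

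**Figure D1:**
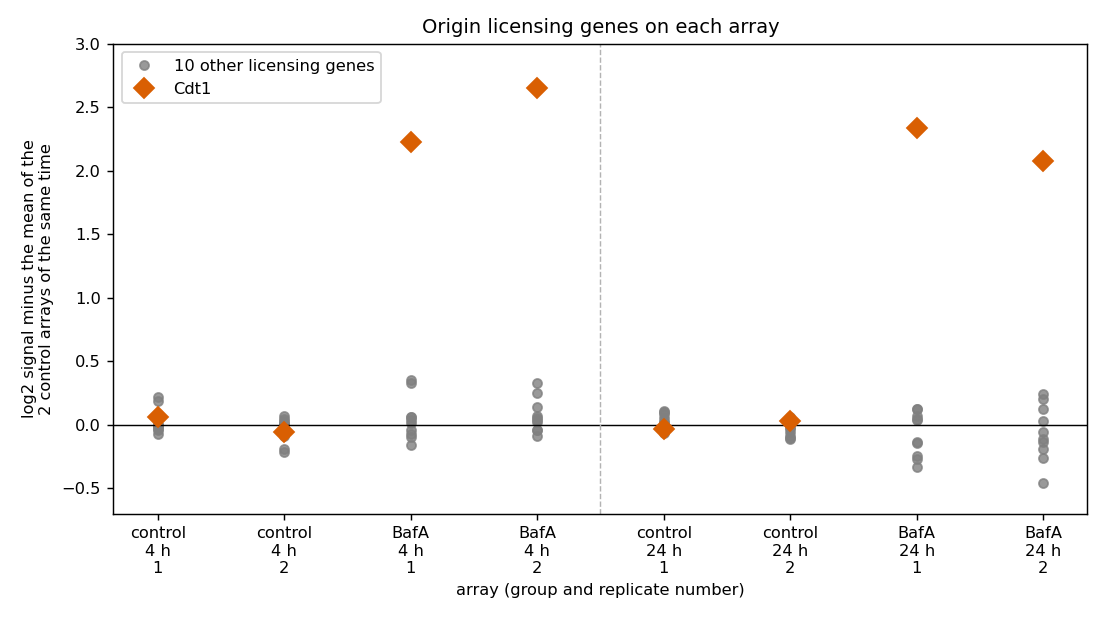
Log2 signal of Cdt1 (orange diamonds) and of the 10 other licensing genes (grey circles) on each of the 8 arrays (horizontal axis), minus the mean of the 2 control arrays of the same time. Cdt1 lies at 2.22 and 2.65 on the BafA 4 h arrays and at 2.34 and 2.08 on the BafA 24 h arrays, and the other genes lie between -0.46 and 0.35 on these 4 arrays.

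None of the other 10 licensing genes was called higher at either time. At 4 h, 0 of the 10 were called by limma, where 1.13% of all probes were called higher and 1.09% lower. An unadjusted p under 0.05 was found for 2 of the 10 and for 2027 of all 20473 probes. The log2 fold changes of the 10 ran from -0.10 to 0.34 with a median of 0.03, and the highest upper bound of their 95% intervals was 0.66. At 24 h, 0 were higher and 1 was lower, against 14.6% and 12.8% of all probes, with a range of -0.30 to 0.18, a median of -0.07 and a highest upper bound of 0.50. The log2 fold change of Cdt1 was thus above the median of the other 10 by 2.41 at 4 h and by 2.27 at 24 h. The replicate standard deviation of the Cdt1 log2 signal minus the median of the other 10 on the same array was 0.18.

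Orc1, the largest ORC subunit, was the licensing gene that fell. Its signal was 25.2 and 27.9 in control 4 h, 27.6 and 27.8 in BafA 4 h, 30.9 and 29.8 in control 24 h and 25.1 and 25.3 in BafA 24 h. The 2 groups of 24 h did not overlap, whereas those of 4 h did. Its log2 fold change after 24 h of BafA was -0.27 ± 0.07 (adjusted p = 0.00742), and the adjusted p rose to 0.056 or 0.0542 when BafA 24 h replicate 1 or 2 was left out. Orc6, the smallest ORC subunit, was at 225.2 and 224.5 in control 4 h and 287 and 282 in BafA 4 h. Its groups did not overlap, but the log2 fold change of 0.34 ± 0.15 did not pass the test (adjusted p = 0.437). Groups without overlap are common with 2 arrays a side. At 4 h, BafA was higher in this way for 21.8% of all probes and lower for 16.3%. At 24 h the shares were 32.6% and 24.5%.

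Among the helicase subunits, Mcm3 came closest to the threshold at 4 h, with signals of 30.3 and 31.5 in control and 38.8 and 36.8 in BafA (log2 fold change 0.29 ± 0.08, adjusted p = 0.0547). It passed in 7 of 20 alternatives. Among these were the fit of only the 4 h arrays (adjusted p = 0.00792) and the scan setting as a block (0.32, adjusted p = 0.0237). Others were the replicate number as a block (adjusted p = 0.0203) and the fit that kept probes without a value (adjusted p = 0.0289). By 24 h its 2 groups overlapped, at 25.9 and 22.9 in control and 25.6 and 24.9 in BafA. Mcm6 had 43.9 and 37.7 in control 24 h and 36.9 and 29.6 in BafA 24 h, a log2 fold change of -0.30 ± 0.13 with an adjusted p of 0.0858. That value passed without control 24 h replicate 2 (-0.41, adjusted p = 0.00241), without BafA 24 h replicate 1 (-0.46, adjusted p = 0.0457) and without control 4 h replicate 1 (adjusted p = 0.0487). The remaining subunits, Mcm2, Mcm4, Mcm5 and Mcm7, had log2 fold changes between -0.09 and 0.10 at 4 h and between -0.23 and 0.13 at 24 h. Cdc6, the loading ATPase that works with Cdt1, was dim and even, from 15.7 to 17.0 on all arrays. Gmnn, the inhibitor of Cdt1, had 27.4 and 29.1 in control 4 h and 28.5 and 29.0 in BafA 4 h, and 46.3 and 40.0 in control 24 h and 36.3 and 37.8 in BafA 24 h. BafA against control gave 0.02 ± 0.09 on the log2 scale for Gmnn at the early time and -0.22 ± 0.09 at the late one (adjusted p = 0.0659), the latter becoming -0.32 with an adjusted p of 0.00397 without control 24 h replicate 2.

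Promoter sequences from RefSeq (build GRCm38.p6, 250 bases before to 50 after each annotated start) were at hand for 28 of the 33 genes, with 35 promoters in all; Ccne2, Gins1, Gins2, Gmnn and Mcm4 had none. They were searched on both strands, with overlapping matches counted, for 4 spellings of the E2F site, TTTCCCGC, TTTGGCGC, TTTGCCGC and TTTCGCGC. A spelling was found in 13 of the 35 promoters (37.1%), from 13 genes, against 744 of 32851 mouse promoters (2.26%). The 13 genes were Cdc6, Cdk2, Cdt1, E2f2, E2f3, Lig1, Mcm3, Mcm5, Mcm6, Mcm7, Orc1, Pola1 and Uhrf1. CCAAT was found in 23 of 35 (65.7%, against 37.4% of all promoters), the CHR element TTTGAA in 5 (14.3% against 17.9%), the E-box CACGTG in 5 (14.3% against 7.15%) and the cAMP response element TGACGTCA in 1 (2.86% against 1.79%). A match describes the letters only.

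Below are the promoters of Cdt1, of 2 helicase subunits that hold the same E2F spelling and were not called at 4 h, and of Pola1, which rose at 24 h and not at 4 h. The spelling they share, TTTGGCGC, was also found in promoters of Mcm5 and E2f2, which are not shown. The capitals mark the E2F spellings on either strand, and each is written 5′ to 3′ along the strand of the gene. Cdt1 is on chromosome 8 (chr8:122567765-122568064, plus strand), Mcm3 on chromosome 1 (chr1:20820263-20820562, minus strand), Mcm6 on chromosome 1 (chr1:128359656-128359955, minus strand) and Pola1 on the X chromosome (chrX:93632106-93632405, minus strand).
Cdt1: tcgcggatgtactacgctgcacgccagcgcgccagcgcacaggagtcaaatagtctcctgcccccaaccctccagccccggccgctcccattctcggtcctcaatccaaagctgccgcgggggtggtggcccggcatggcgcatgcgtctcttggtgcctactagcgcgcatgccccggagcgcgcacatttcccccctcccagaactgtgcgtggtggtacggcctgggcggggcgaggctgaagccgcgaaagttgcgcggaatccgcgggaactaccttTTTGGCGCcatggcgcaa
Mcm3: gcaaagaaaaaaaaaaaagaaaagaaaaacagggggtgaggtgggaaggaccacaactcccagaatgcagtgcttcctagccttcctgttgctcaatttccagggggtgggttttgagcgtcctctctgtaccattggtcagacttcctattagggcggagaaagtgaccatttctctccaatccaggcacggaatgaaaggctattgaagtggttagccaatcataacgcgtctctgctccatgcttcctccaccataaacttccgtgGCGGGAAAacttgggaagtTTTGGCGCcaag
Mcm6: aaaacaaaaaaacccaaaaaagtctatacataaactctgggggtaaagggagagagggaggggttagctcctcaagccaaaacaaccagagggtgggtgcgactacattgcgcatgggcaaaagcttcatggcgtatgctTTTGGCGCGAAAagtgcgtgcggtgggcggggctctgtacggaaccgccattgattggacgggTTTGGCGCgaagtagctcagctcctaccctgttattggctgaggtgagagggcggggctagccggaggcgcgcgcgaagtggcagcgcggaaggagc
Pola1: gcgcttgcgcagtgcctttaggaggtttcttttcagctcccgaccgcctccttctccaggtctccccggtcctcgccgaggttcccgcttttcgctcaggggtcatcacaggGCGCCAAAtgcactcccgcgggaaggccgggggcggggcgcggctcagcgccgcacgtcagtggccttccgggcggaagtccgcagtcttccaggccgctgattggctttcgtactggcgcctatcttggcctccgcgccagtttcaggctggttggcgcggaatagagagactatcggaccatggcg
In Cdt1, TTTGGCGC lies 32 to 39 bases after the annotated start, and the window holds no CCAAT. In Mcm3 the same spelling lies 38 to 45 bases after the start, with TTTCCCGC on the other strand at 19 to 26. Mcm6 carries it at -110 to -103 and again at -47 to -40 from the start, the first copy overlapping TTTCGCGC on the other strand. Pola1 carries it on the other strand at -138 to -131. For the genes shown, the log2 fold changes at 4 h were 2.44 for Cdt1, 0.29 for Mcm3, -0.10 for Mcm6 and 0.02 for Pola1. Whether E2F factors act at these sites was not tested.

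Over all 33 genes, the early response to BafA was small apart from Cdt1. At 4 h, 2 of the 33 were higher (1.13% of all probes tested were called higher) and 0 were lower by limma (1.09% of all probes). An unadjusted p under 0.05 in either direction was found for 4 members and for 2027 of all 20473 probes. The median log2 fold change was 0.02 over the members and 0.01 over all probes. The other gene called was E2f3, an activating E2F factor, at 25.9 and 26.5 in control and 32.4 and 31.2 in BafA. The groups did not overlap, as for 21.8% of all probes in that direction, and the log2 fold change was 0.28 ± 0.07 (adjusted p = 0.0435). Leaving out any 1 array of the 4 h groups ended this call, with adjusted p from 0.132 to 0.305, as did leaving out either BafA 24 h array (0.0693 and 0.072) and fitting the scan setting as a block (0.25, adjusted p = 0.0771).

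**Figure D2:**
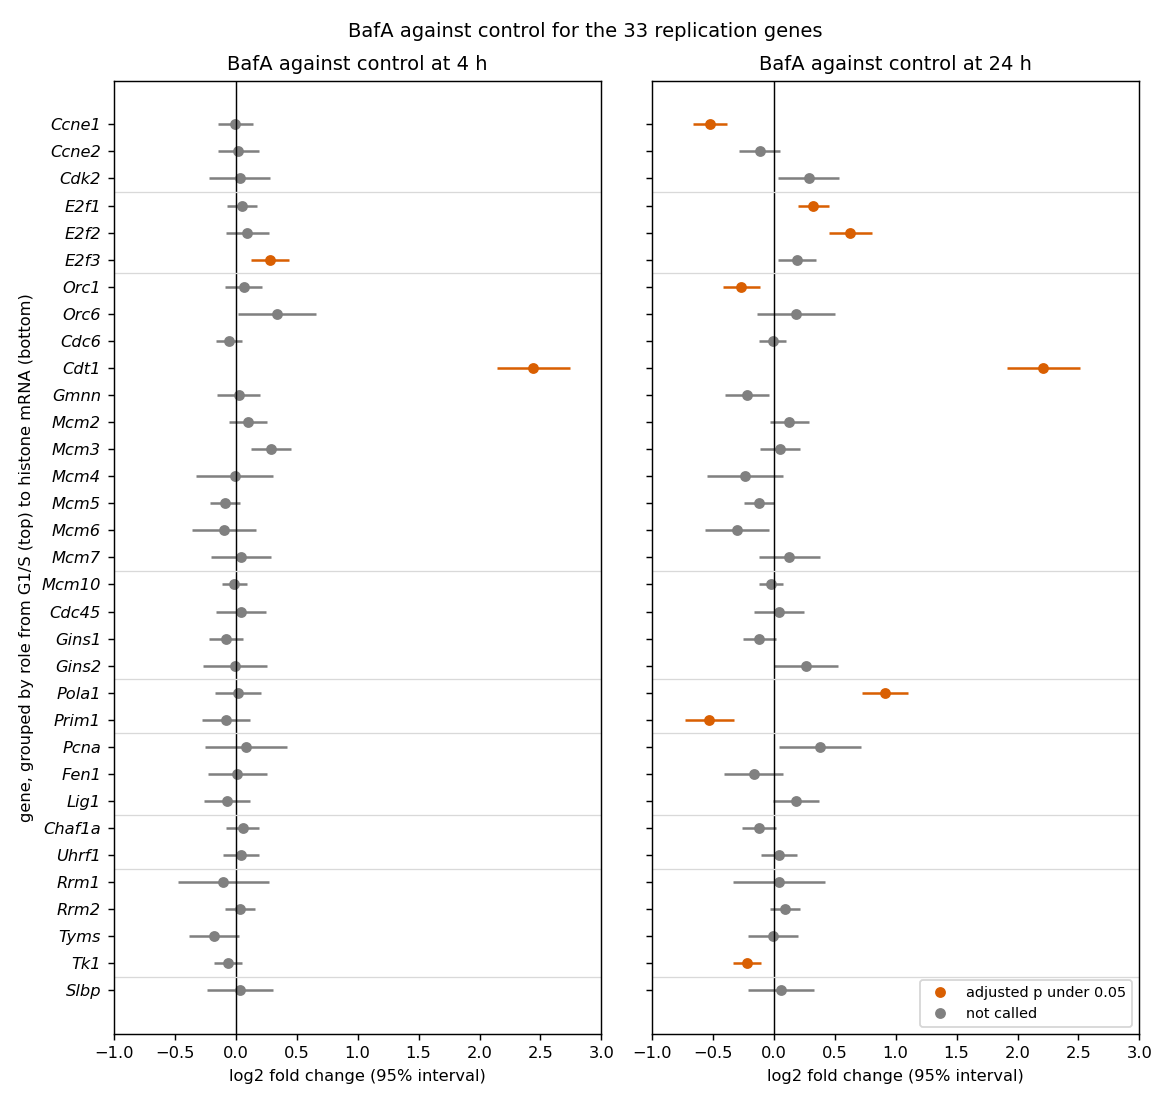
Log2 fold change of BafA against control (horizontal axis, points with 95% intervals) for the 33 genes at 4 h (left) and 24 h (right), ordered by role from the G1/S cyclins at the top to Slbp at the bottom. Orange marks an adjusted p under 0.05. At 4 h, Cdt1 and E2f3 are marked, and at 24 h 4 genes on either side of 0 are.

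By 24 h, 4 of the 33 genes were higher, namely Cdt1, E2f1, E2f2 and Pola1 (14.6% of all probes were called higher), and 4 were lower, namely Ccne1, Orc1, Prim1 and Tk1 (12.8% of all probes). These shares are close to those of the whole array, and the median log2 fold change was 0.04 over the members and 0.02 over all probes. Cdt1 was the 1 member called at both times. Both directions appeared within 1 functional unit, since Pola1 and Prim1, subunits of the DNA polymerase alpha-primase complex, moved oppositely.

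Pola1 is the catalytic subunit of DNA polymerase alpha, which extends the primers that start each new strand. Its signal was 27.7 and 26.1 in control 4 h and 27.2 and 27.2 in BafA 4 h, then 35.0 and 37.5 in control 24 h and 63.6 and 73.5 in BafA 24 h. The BafA 24 h arrays were the highest of the 8 and lay apart from all others. On the log2 scale the difference between BafA and control was 0.02 ± 0.09 after 4 h and 0.92 ± 0.09 after 24 h (adjusted p = 2.16e-08), and the deposited values gave 2.40-fold at the later time. Prim1, the primase subunit that makes the RNA primer, had 27.9 and 29.7 in control 4 h, 27.0 and 27.5 in BafA 4 h, 43.8 and 35.7 in control 24 h and 25.03 and 30.11 in BafA 24 h. Control 24 h was the group that stood above the other 3. The log2 fold change at 24 h was -0.53 ± 0.10 (adjusted p = 0.00013).

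E2f1 and E2f2, both activating E2F factors, rose at 24 h. E2f1 was dim, with deposited group means from 9.25 to 24.95, below the array median of 25 in every group. E2f2 had signals of 27.7 and 29.0 in control 24 h and 40.8 and 47.2 in BafA 24 h (log2 fold change 0.63 ± 0.08, adjusted p = 2.54e-06). At 4 h it had 26.2 and 28.3 in control and 29.7 and 28.6 in BafA. E2f1 had 20.7 and 19.2 in control 24 h and 25.2 and 24.7 in BafA 24 h (log2 fold change 0.33 ± 0.06, adjusted p = 0.000174), against 17.3 and 17.5 in control 4 h and 18.5 and 17.6 in BafA 4 h. For both genes, the 2 BafA 24 h arrays were the highest of the 8. E2f3 had 22.0 and 23.6 in control 24 h and 27.4 and 24.7 in BafA 24 h, and did not pass (0.19 ± 0.07, adjusted p = 0.0598). It passed in 3 of the alternatives, namely without control 24 h replicate 2 (0.24, adjusted p = 0.0212), with the replicate number as a block (adjusted p = 0.0358) and with the deposited values (0.40, adjusted p = 0.0496).

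Cyclin E1 (Ccne1), which activates Cdk2 at the G1/S transition, moved the other way. It was at 28.04 and 28.22 in control 4 h, 28.5 and 27.7 in BafA 4 h and 27.6 and 27.5 in control 24 h, and at 18.6 and 19.9 in BafA 24 h. The 6 other arrays thus lay within 1 unit of each other while both BafA 24 h arrays were lower, and the log2 fold change was -0.52 ± 0.07 (adjusted p = 1.84e-06), or 0.431-fold in the deposited values. Tk1, thymidine kinase of the salvage route to dTTP, was dim, at 21.6 and 21.8 in control 24 h and 18.8 and 18.5 in BafA 24 h (log2 fold change -0.22 ± 0.05, adjusted p = 0.00324). Its 2 groups did not overlap, as for 24.5% of all probes in that direction. Cyclin E2 (Ccne2) and Cdk2 did not pass at 24 h, with -0.11 ± 0.08 (adjusted p = 0.36) and 0.29 ± 0.12 (adjusted p = 0.0859), and Cdk2 passed without control 24 h replicate 2 (0.46, adjusted p = 1.83e-05) and without BafA 4 h replicate 1 or 2 (adjusted p = 0.0391 and 0.0373).

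**Figure D3:**
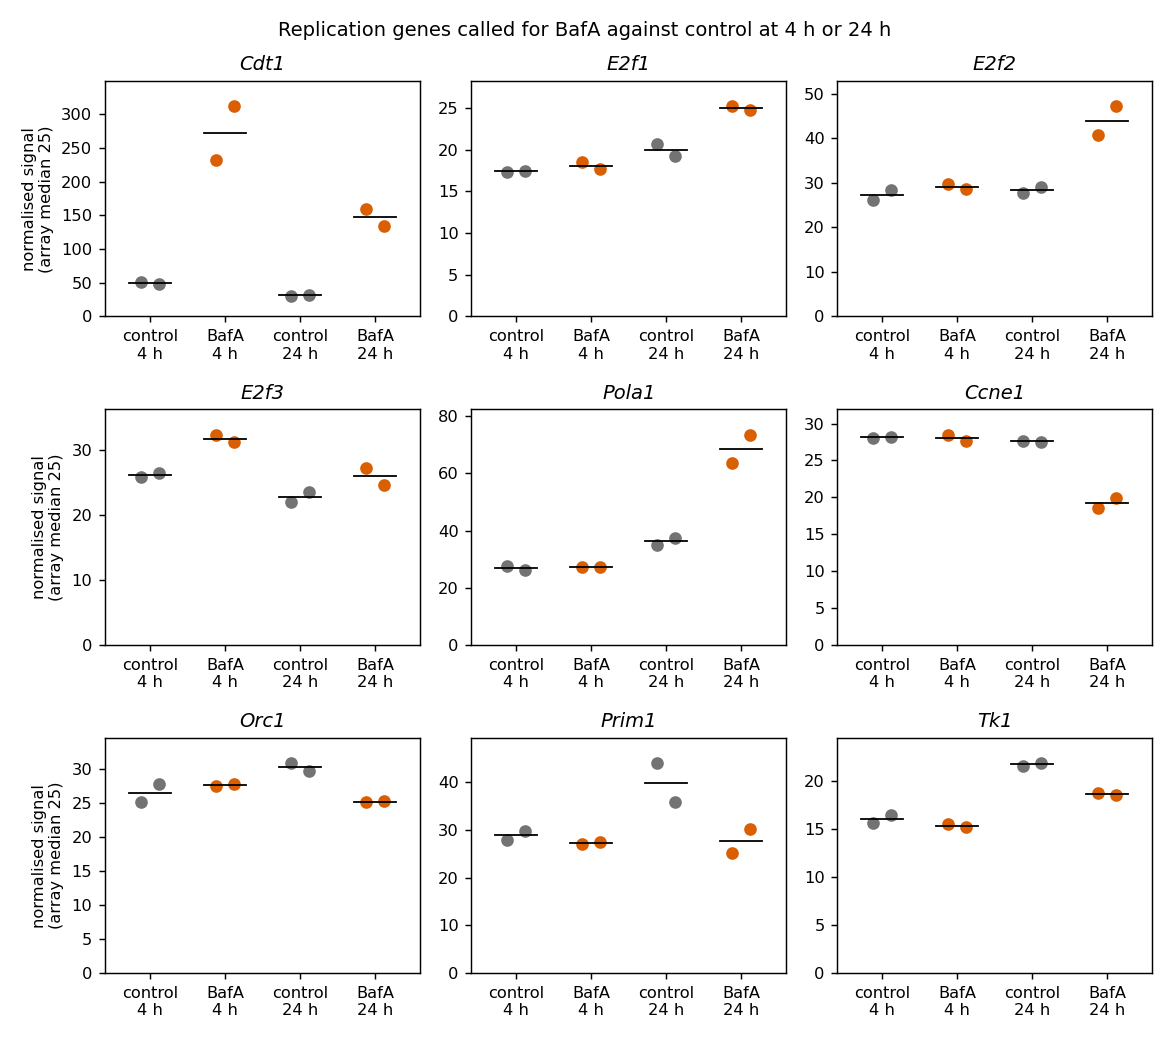
Normalised signal (vertical axes from 0, array median 25) of the 9 genes called for BafA at 4 h or 24 h, with 1 point for each of the 2 arrays of a group and a bar at their mean (grey, control; orange, BafA). Cdt1 is higher in BafA at both times, and Pola1, E2f2 and Ccne1 change in the BafA 24 h arrays, to 63.6 and 73.5, 40.8 and 47.2, and 18.6 and 19.9.

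The remaining fork genes were not called for BafA over all 8 arrays. Pcna, the sliding clamp of the replicative polymerases, had 522 and 439 in control 24 h and 627 and 621 in BafA 24 h. These groups did not overlap, as for 32.6% of all probes in that direction. The log2 fold change of Pcna was 0.38 ± 0.16 (adjusted p = 0.0901). It passed with the deposited values (0.42, adjusted p = 0.0346), the offset of 16 (0.40, adjusted p = 0.0451) and no variance trend (adjusted p = 0.0344). Cdc45, Gins1 and Gins2, which with the Mcm complex form the active helicase, had log2 fold changes from -0.12 to 0.27 at 24 h. For Gins2 the control 24 h arrays differed, at 32.8 and 21.0, and the BafA 24 h arrays lay at 30.1 and 33.1. Without control 24 h replicate 1, the log2 fold change of Gins2 was 0.59 (adjusted p = 5.68e-08) and that of Cdc45 was 0.29 (adjusted p = 0.0029). With the scan setting as a block, Gins2 was called higher at 24 h (0.47, adjusted p = 0.000696). Fen1 and Lig1, which trim and seal Okazaki fragments, had -0.16 ± 0.12 and 0.18 ± 0.09, and neither passed. Chaf1a of the histone chaperone CAF-1 and Uhrf1, which brings the maintenance methyltransferase to new DNA, had -0.12 ± 0.07 and 0.04 ± 0.07. The ribonucleotide reductase subunits Rrm1 and Rrm2 and thymidylate synthase (Tyms) had values from -0.01 to 0.10, and Slbp, which binds histone mRNA, had 0.06 ± 0.13. For Rrm1 the 2 arrays of each group were far apart, as at 120.2 and 85.2 in control 24 h, and its 95% interval at 24 h ran from -0.33 to 0.42.

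The effect of BafA was compared directly between the times. It was more positive at 24 h than at 4 h for 3 of the 33 genes (7.38% of all probes) and more negative for 3 (7.3% of all probes). The difference was 0.90 ± 0.13 for Pola1 (adjusted p = 1.56e-05), 0.53 ± 0.12 for E2f2 (adjusted p = 0.00265) and -0.52 ± 0.10 for Ccne1 (adjusted p = 0.00043). It was smaller and nearer the threshold for E2f1 (0.27 ± 0.09, adjusted p = 0.0323), Orc1 (-0.33 ± 0.10, adjusted p = 0.0323) and Prim1 (-0.45 ± 0.14, adjusted p = 0.0245). Each of these 3 lost its call when 1 array was left out: E2f1 without any but BafA 4 h replicate 1 or control 24 h replicate 1 (adjusted p from 0.0666 to 0.169), Orc1 without control 4 h replicate 1 or any BafA array (0.0951 to 0.161), and Prim1 without replicate 1 of control 4 h, control 24 h or BafA 24 h (0.0513 to 0.211). For Cdt1, as given above, no difference was detected.

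The replication genes also moved in control qNSCs between 4 h and 24 h after the medium change. In control, 11 of the 33 were higher at 24 h (18.8% of all probes) and 6 were lower (14.2% of all probes), and the median log2 fold change was 0.13 against 0.01 over all probes. Cyclin E2 fell most, from 47.7 and 43.3 to 24.7 and 23.9, by 0.90 on the log2 scale (SE 0.08, adjusted p = 5.15e-09). Gins2 fell by 0.70, a value that was -0.37 without control 24 h replicate 2 and -1.02 without control 24 h replicate 1, with the call kept in either case (adjusted p = 0.0017 and 1.26e-22). Mcm3 fell by 0.34. Rises were seen for Gmnn (0.61 ± 0.09), Prim1 (0.46 ± 0.10), Tk1 (0.44 ± 0.05), Pola1 (0.43 ± 0.09) and Uhrf1 (0.34 ± 0.07). Tk1 went from 15.6 and 16.4 to 21.6 and 21.8, groups that did not overlap. Pcna rose by 0.60 ± 0.16 (adjusted p = 0.00543), a call that ended without replicate 1 of either control group (adjusted p = 0.101 without control 4 h replicate 1 and 0.0908 without control 24 h replicate 1), and Mcm6 fell by 0.44 (adjusted p = 0.00879), which ended without control 4 h replicate 1 (-0.22, adjusted p = 0.267). The other calls were nearer the threshold (E2f1, E2f3, Orc1, Cdc45, Lig1 and Tyms, log2 fold changes from -0.20 to 0.27), and each of them ended without 1 or more single arrays, among them control 4 h replicate 2 for E2f1, E2f3, Cdc45, Lig1 and Tyms (adjusted p from 0.0516 to 0.225) and control 4 h replicate 1 for Orc1 (0.12, adjusted p = 0.338). For Cdc45 the value was 0.014 without control 24 h replicate 1 (adjusted p = 0.943) and 0.50 without control 24 h replicate 2 (adjusted p = 4.21e-08). Each BafA comparison uses the control arrays of its time, and this comparison uses all 4. Markers on the oligodendrocyte lineage, neuronal and astrocyte lists shifted over the same interval in control. The paper uses GFAP, which is on the astrocyte list, among its markers of NSCs in the brain. That list thus does not mark astrocytes alone. The summed signal of the oligodendrocyte lineage markers went from 303 to 400 at 4 h to 1603 to 1880 at 24 h (3 of 5 higher, 1 lower), that of the neuronal markers from 172 to 175 to 303 to 345 (2 of 5 higher, 1 lower) and that of the astrocyte markers from 3739 to 3759 to 3933 to 5496 (2 of 6 higher, 2 lower). Their part in the changes of the replication genes was not tested.

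In BafA, 12 of the 33 were higher at 24 h than at 4 h (21.4% of all probes) and 7 were lower (15.9% of all probes). In both media the same 15 genes were called, each in the same direction. These 2 comparisons share no arrays, but they come from the same fit and share its variance estimate for each probe. Their calls are thus not independent. Of the 15, 9 were higher at 24 h in both media and 6 were lower, and of all probes 11.3% were called higher in both and 8.91% lower in both. The members called in only 1 of the 2 were Prim1 and Orc1 in control and Ccne1, E2f2, Cdk2 and Rrm2 in BafA. The difference between the media, which is the same contrast as that between the BafA effects at the 2 times, passed for Prim1, Orc1, Ccne1 and E2f2 and did not pass for Cdk2 (0.25 ± 0.17, adjusted p = 0.427) or Rrm2 (0.06 ± 0.08, adjusted p = 0.8). In BafA, the call of Cdk2 ended without BafA 4 h replicate 1 (0.26, adjusted p = 0.136) or BafA 24 h replicate 2 (0.36, adjusted p = 0.12), that of Rrm2 without BafA 4 h replicate 1 or 2 or BafA 24 h replicate 2 (adjusted p from 0.0544 to 0.095), that of E2f3 without BafA 24 h replicate 2 (adjusted p = 0.0848), that of Gins2 without BafA 24 h replicate 1 (adjusted p = 0.151) and that of Cdc45 without any array but those of control 24 h (adjusted p from 0.0509 to 0.233). Pola1 had the largest rise in BafA, 1.33 ± 0.09 (adjusted p = 2.1e-11), and Ccne2 the largest fall, -1.04 ± 0.08 (adjusted p = 2.15e-10).

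**Figure D4:**
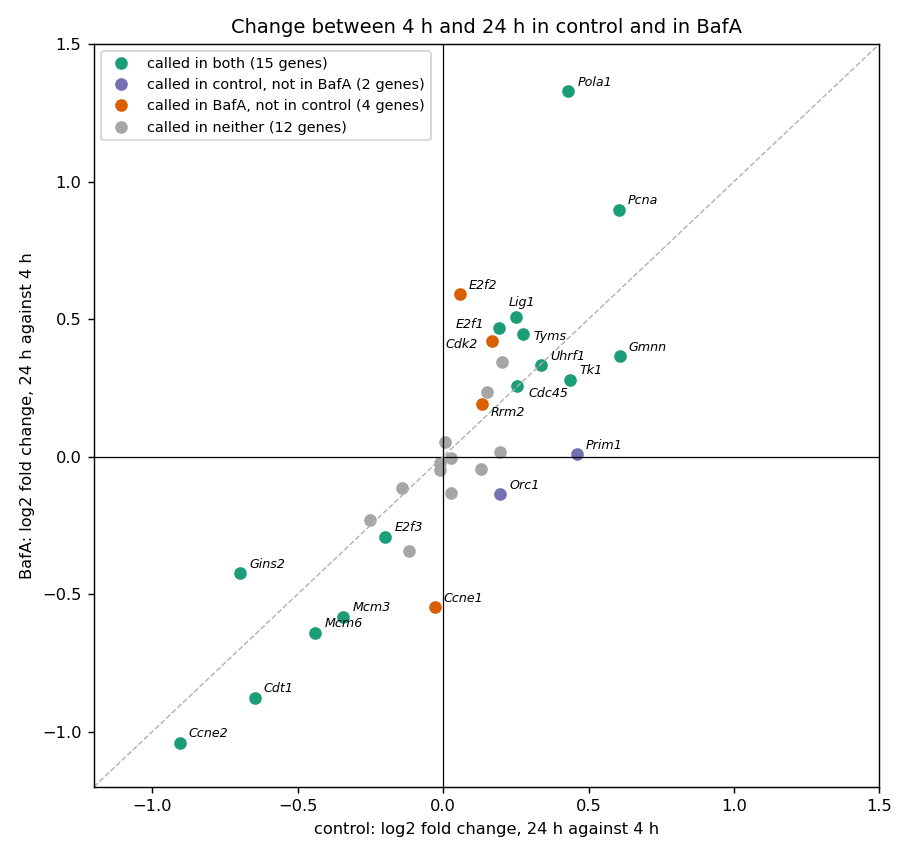
Log2 fold change of the 33 genes from 4 h to 24 h in control (horizontal axis) and in BafA (vertical axis), with the dashed line at equal change and colours for the calls in each medium. Pola1 lies at 0.43 in control and 1.33 in BafA, E2f2 at 0.06 and 0.59, Ccne1 at -0.03 and -0.55, and Prim1 at 0.46 and 0.01.

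Of 81 other genes of replication and the G1/S step, 77 were tested. At 4 h, 2 of them were higher with BafA and 0 were lower by limma (8 had an unadjusted p under 0.05 in either direction), against 1.13% and 1.09% of all probes. Of all 20473 probes, 2027 had an unadjusted p under 0.05 at 4 h. Dbf4, the activating partner of the Cdc7 kinase that fires licensed origins, had 23.7 and 23.5 in control 4 h and 29.8 and 32.8 in BafA 4 h (log2 fold change 0.41 ± 0.07, adjusted p = 0.000686), and it was higher at 24 h as well (0.28 ± 0.07, adjusted p = 0.00271). The other gene was Pold2, a subunit of DNA polymerase delta, with 109.5 and 117 in control and 186 and 194 in BafA at 4 h (0.75 ± 0.15, adjusted p = 0.00524). Its 24 h value missed the threshold (-0.37 ± 0.15, adjusted p = 0.0726), and its difference between the times was -1.12 ± 0.21 (adjusted p = 0.000532).

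By 24 h, 10 of the 77 were higher (14.6% of all probes) and 7 lower (12.8% of all probes), and their median log2 fold change was -0.02. Among those higher were Cks1b, a partner of Skp2 in the SCF ubiquitin ligase (0.76 ± 0.16), Ticrr (treslin), which helps to load Cdc45 (0.61 ± 0.06), Cul4b (0.48 ± 0.14) and the deubiquitinase Usp1 (0.46 ± 0.10). The genes with the largest falls were the thymidylate kinase Dtymk (-0.88 ± 0.13), Cdk1 (-0.64 ± 0.11), the maintenance methyltransferase Dnmt1 (-0.51 ± 0.12) and the clamp loader subunit Rfc5 (-0.49 ± 0.09). Of the 11 tested genes that act on the Cdt1 protein, among them Cul4b, Ddb1 and Skp2, 0 were called at 4 h by limma (1.13% of all probes were called higher and 1.09% lower). An unadjusted p under 0.05 was found for 1 of the 11 and for 2027 of all 20473 probes. At 24 h, 4 of the 11 were higher and 1 was lower, beside 14.6% and 12.8% of all probes. In control between 4 h and 24 h, 17 of the 77 rose (18.8% of all probes) and 8 fell (14.2% of all probes), with Skp1 (1.08 ± 0.13), Pold2 (1.07 ± 0.15), Rpa3 (1.06 ± 0.11) and Cdk1 (0.80 ± 0.11) rising most and Ctps (-1.97 ± 0.13), Skp2 (-0.65 ± 0.11), Orc2 (-0.59 ± 0.15) and Usp1 (-0.45 ± 0.10) falling most among those whose groups did not overlap.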

How the data were processed

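Cy5-labeled RNA of 8 samples was hybridised to 1-colour oligonucleotide arrays. The authors deposited each array's scanner output, whose intensities are linear and not normalised, and 1 table of signal values scaled to an array median of 25, from which, as its values show, the level of blank spots had been subtracted. All columns had a sample.

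Spots were read with Python 3.11.15. In R 4.3.3, limma 3.58.1 corrected the background (normexp, offset 50, all spots, no local background). Control spots were dropped, arrays were scaled to a median of 25, and log2 was taken. Gene probes that had a value on every array, 20473 in number, were fitted with 1 coefficient per group (eBayes with a variance trend, 4 residual degrees of freedom), and p-values were adjusted by Benjamini-Hochberg over all of them. The fit was tested on simulated data. Symbols were taken from the platform annotation and updated through RefSeq synonyms, and the brightest probe stood for a gene. Members are named by role. Of the other pathway genes, those called at 4 h are named, and at 24 h and in the control time comparison up to 4 rising most and up to 4 falling most among called genes whose groups did not overlap. Members and lists were chosen with earlier results of these data known. The gain slopes in the scanner headers differ for replicate 1 of both control groups and were read as a second scan setting, which holds no BafA array. Other columns of the scanner output, and supplementary fold-change tables of the study, were not used here.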

Additional observations from a re-analysis of the deposited data

Results flagged for a closer look

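For 6 of the 33 genes the effect of BafA differed between 4 h and 24 h by a direct test of that difference over all 8 arrays. On the log2 scale, the effect at 24 h minus that at 4 h was 0.90 for Pola1 (adjusted p = 1.56e-05), 0.53 for E2f2 (adjusted p = 0.00265) and 0.27 for E2f1 (adjusted p = 0.0323). It was -0.52 for Ccne1 (adjusted p = 0.00043), -0.45 for Prim1 (adjusted p = 0.0245) and -0.33 for Orc1 (adjusted p = 0.0323). Apart from the subtraction of the local background of each spot, the calls for Pola1, E2f2 and Ccne1 held under every alternative fitted across all probes, and those for E2f1, Prim1 and Orc1 ended under between 8 and 9 of the alternatives each.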

How the results depend on the processing

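Subtraction of the signal around each spot before the background correction changed calls in all 5 comparisons. That signal followed the spot itself (Spearman correlation of at least 0.958 over gene spots on each array), and the standard deviation of log2 differences between the 2 arrays of a group rose from 0.131 to 0.181 without it to 0.411 to 0.628 with it. The number of members called became 0 at 4 h, 1 at 24 h (Cdt1), 0 for the difference between times, 0 for control over time and 0 for BafA over time. Calls were lost over the whole array as well. Over all probes, 0 were called at 4 h, and 130 higher and 57 lower at 24 h. The difference between times gave 4 higher and 0 lower, control over time 8 and 0, and BafA over time 168 and 74. Called values changed sign for E2f3 at 4 h (-0.11), Prim1 at 24 h (0.015), E2f1 (-0.0026) and Prim1 (0.11) in the difference between times, E2f3 (0.11), Mcm3 (0.0031), Pola1 (-0.058) and Lig1 (-0.086) in control over time, and E2f3 (0.0059) and Mcm3 (0.0052) in BafA over time. The Cdt1 gap to the other licensing genes was 2.15 at 4 h and 2.05 at 24 h.

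At 4 h, 1 member (Cdt1) was left with the deposited values, an offset of 16, quantile normalisation, dim probes left out, no variance trend and the methods' 2-fold rule. Over all probes these settings called from 97 to 229 higher and from 29 to 205 lower, against 232 and 224 in the main fit. The methods' t-test, run here on the normalised log2 signal and not on the deposited values, found 5 members at 4 h before Benjamini-Hochberg adjustment and 0 after it. Over all probes it found 826 higher and 715 lower before adjustment, and 1 higher and 0 lower after it. At 24 h it found 0 members after adjustment, with 0 probes higher and 1 lower over the whole array. The 2-fold rule gave 4 members at 24 h, beside 934 probes higher and 1118 lower. Without the variance trend, 3 members were called for the difference between times, beside 1248 probes higher and 1226 lower. With the scan setting as a block, 2 members were called at 4 h (Cdt1 and Mcm3, while E2f3 lost its call) and 9 at 24 h (Gins2 gained). Over all probes this block gave 252 higher and 196 lower at 4 h, and 2900 and 2513 at 24 h. With the 6 arrays of the common scan setting, 10 were called in control over time. The Cdt1 gap was 2.76 (4 h) and 3.01 (24 h) with the deposited values and 2.62 and 2.70 with the offset of 16.

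Leaving out 1 array at a time gave 1 to 3 calls at 4 h, 7 to 12 at 24 h, 3 to 8 for the difference, 10 to 18 in control and 15 to 20 in BafA over time, and Cdt1 gaps of 2.20 to 2.61 and 2.17 to 2.39. The count fell by over 1.5 times at 4 h (to 1) without any single 4 h or BafA 24 h array, for the difference (to 3) without control 4 h replicate 1 or BafA 24 h replicate 1, and in control over time (to 10) without control 4 h replicate 1. A lone array was assumed to vary like the other groups. With the replicate number as a block, 3 members were called at 4 h and 12 at 24 h, but same-numbered arrays did not deviate together throughout (correlations from -0.223 to 0.316), so the numbers were not taken as pairs. With the numbers of the BafA arrays crossed, an alternative chosen after seeing the data, 1 was called at 4 h and 8 at 24 h. Over all probes the replicate block gave 282 higher and 286 lower at 4 h, and 3223 and 2792 at 24 h. The crossed numbers gave 159 and 106 at 4 h, and 3244 and 2735 at 24 h. The mean over the probes of a gene was not run, as each member has 1 probe. In no alternative other than the local background, the methods' t-test after adjustment or the 2-fold rule did the count at 24 h move past 1.5 times. For 8 members dimmer than the array median, signal over background limits what could be found.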
